A study of Drosophila sechellia and Drosophila melanogaster and Drosophila simulans with 18 samples.

Results

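The response of *Drosophila sechellia* to dietary L-DOPA was described gene by gene in whole adult females. Its members were all rows of the authors' deposited *D. sechellia* table except those of rRNA, snRNA, snoRNA, tRNA and miRNA genes, which left 16474 of 17273 rows, or 16474 of the 50294 rows in the tables of the 3 species. Females of strain 14021-0428.25 were reared on cornmeal medium at 20 °C, collected within 3 days of eclosion and then kept for 24 hr on instant food, either plain (control food) or with 10 mg/ml L-DOPA. RNA came from pools of 10 whole flies, with 3 libraries per food and 6 in all, so every tissue of the fly contributed and single animals were not resolved. *D. simulans* (strain 14021-0251.195) and *D. melanogaster* (strain 14021-0231.36) females, of 1 strain each, were treated the same way. The *D. sechellia* strain is 1 laboratory stock, and plain and L-DOPA flies did not differ in genotype.

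L-DOPA is the precursor of dopamine. In insects dopamine serves as a neurotransmitter and as a source of the compounds that tan and darken the cuticle, and tyrosine hydroxylase makes L-DOPA from tyrosine. *D. sechellia* is a specialist on the fruit of *Morinda citrifolia*, which carries octanoic acid, toxic to most other flies, and also L-DOPA. The comparison addressed which genes differ in expression in this specialist when L-DOPA is added to the diet.

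The table holds 1 FPKM value per gene and food. FPKM scales the reads of a gene by its length and by the size of the library, and the authors' software combined the 3 libraries of a food into that value. The table gives no value per library, so no SD or test across libraries was computed here, and the authors' own test columns were not used. The depth of single libraries cannot be read from it, and the study's read totals are not used here. A log2 change here is FPKM with L-DOPA divided by FPKM without it, on the log2 scale and with no pseudocount, so 1 means a doubling on L-DOPA and -1 a halving. A gene was counted as higher or lower when its FPKM differed by at least 2-fold. Those counts describe the pooled libraries and say nothing about how a gene varied between them.

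A status of OK in the table, which marks enough reads for the authors' own test, was given to 11240 members. The FPKM minimum of 1 on either food removed none of them, since the larger of their 2 values was at least 1.94. Among the 5234 members without that status the larger value reached 20.1. Of the 11240, 115 were listed at 0 on one food and have no log2 change, 61 of them at 0 on plain food, 54 at 0 on L-DOPA. All 115 have a numbered symbol, and their FPKM on the other food had a median of 6.92 and a maximum of 252.4. The 11125 genes with a log2 change had a median of 0.11 and quartiles of -0.24 and 0.44, with 6554 above 0 and 4571 below.

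Of these 11125 genes, 585 (5.26%) were higher and 535 (4.81%) were lower on L-DOPA by at least 2-fold. Higher genes thus made up 52.2% of the 2 counts together, and 41.0% (454 higher against 654 lower) when every change was taken relative to the median gene, which lay 0.11 above 0. Changes of this size were most frequent among weakly expressed genes. Below a mean FPKM of 5, 13.7% of 1152 genes were higher and 14.7% lower, whereas between 20 and 100 the shares were 3.53% and 2.45% of 5020 genes. Above 100 the balance turned, with 3.28% higher and 5.47% lower among 2102 genes and a median log2 change of -0.05.

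**Figure D1:**
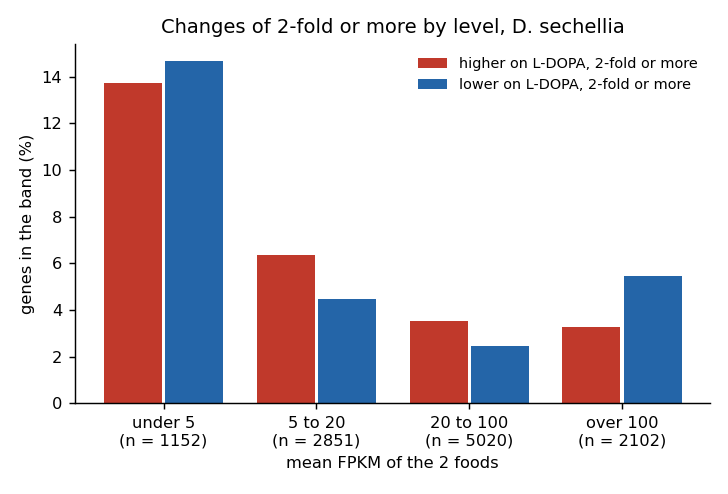
The share of *D. sechellia* genes (%, vertical axis) that were higher (red) or lower (blue) on L-DOPA by 2-fold or more, in bands of mean FPKM (horizontal axis, with the number of genes). Both shares are largest below 5 FPKM (13.7% and 14.7%), and lower genes outnumber higher ones above 100 (5.47% against 3.28%).

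The small RNA classes that were left out were mostly lower on L-DOPA. All 128 rRNA rows with status OK were lower on L-DOPA by at least 2-fold, with a median log2 change of -3.77, and so were 86 of 116 snoRNA rows (median -2.76) and 21 of 27 snRNA rows (median -1.99). These RNAs lack the long poly(A) tail on which mRNA selection rests. Their part in the changes of other genes was not tested.

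Most members carry a number, GM plus digits, in place of a gene name, and no file used here pairs those numbers with names. A name was given to 190 members, and 126 of these had a log2 change. The 126 had a median log2 change of 0.13, with quartiles of -0.22 and 0.38, and 81 of the changes were below 0.5 in size. By at least 2-fold, 7 named genes were higher on L-DOPA (*MtnD*, *MtnA*, *Hmr*, *Est-6*, *cid*, *Mal-A1* and *Cp110*), against 5.26% of all genes. Another 9 were lower (*Sry-alpha*, *CecA1*, the RNase P RNA, *Obp19c*, *DesatF*, *Obp99b*, *CecC*, *Obp99a* and *w*), against 4.81%. *Cp110* (1.04), *Mal-A1* (1.04) and *w* (-1.04) lay just past the 2-fold limit, and *MtnB* (-0.97) just short of it. The highest change short of it was that of *Mal-A7* (0.80). The named genes were annotated by earlier work on particular families and are no random draw from the genome. Of the 126, 9 are listed at the same span as another gene, among them *nos*, *Adh*, *Obp59a*, *mitch* and the RNase P RNA.

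**Figure D2:**
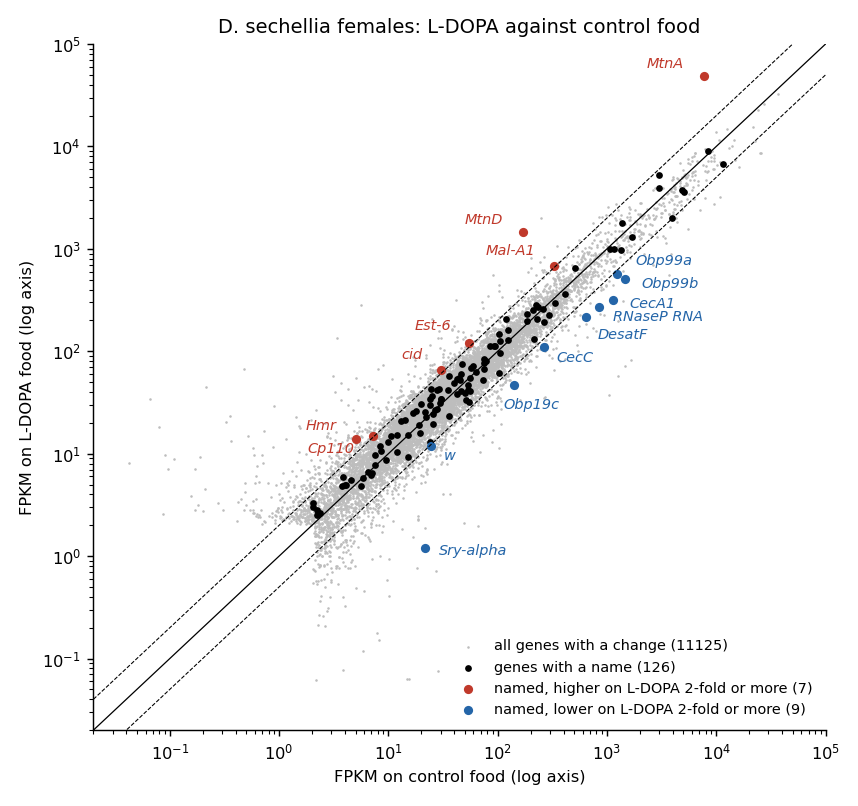
FPKM on control food (horizontal log axis) against FPKM on L-DOPA (vertical log axis) for 11125 *D. sechellia* genes (grey) and the 126 with a name (black, red where higher and blue where lower by 2-fold or more). The solid line marks equal values and the dashed lines 2-fold differences, with 7 named genes above and 9 below them.

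The sex of the flies was checked against marker genes. Of 17 listed female and ovary markers 3 were found by name, all expressed on both foods: the yolk protein gene *Yp2*, and the maternal genes *nos* and *bcd*. Of 18 listed markers of the male reproductive tract 9 were found, of which 6 were at 0 on both foods (5 accessory gland genes and *ocn*), and the 9 together summed to an FPKM of 0.891 on plain food against 1.35 on L-DOPA. The gene list of male reproduction had 12 named members, of which 7 were at 0 on both foods and 1, *janA*, had a log2 change (0.33). *janA* is not among the 18 markers, and it was well expressed in these females, at 184.9 on plain food and 232.2 on L-DOPA.

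The largest increases among named genes were those of 2 metal handling genes. Metallothioneins are small cysteine-rich proteins that bind copper, zinc and cadmium, and in *D. melanogaster* their genes are switched on by the metal-responsive factor MTF-1. *MtnD* (FBgn0177984, dsec_caf1 scaffold_27 from 374770 to 374971) had an FPKM of 169.8 on plain food against 1473 on L-DOPA, 8.68-fold higher. *MtnA* (FBgn0263433, scaffold_0 from 16295547 to 16295905) had 7701 and 49009, 6.36-fold higher, and ranked 39 on plain food and 1 on L-DOPA among the 11125 genes by FPKM. Of the 391 other genes of similar FPKM (mean over both foods at most 2-fold from that of *MtnD*), none had as large a change in this direction, nor did any of the 7 near *MtnA*. The other members of the family did not go the same way. *MtnB* had 3907 on plain food against 1998 on L-DOPA (log2 change -0.97), and *MtnC* had 4819 and 3764 (-0.36). *MtnB*, *MtnC* and *MtnD* all lie on scaffold_27, and reads of such short and related genes could be split between them.

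Genes of sugar digestion had changes on both sides of 0. Maltases release glucose in the gut from the products of amylase. *Mal-A1* (FBgn0175567, scaffold_1 from 1978886 to 1981084) had an FPKM of 329 on plain food against 679 on L-DOPA, a log2 change of 1.04. *Mal-A7* had 119.6 and 208.7 (0.80), while *Mal-A4*, from the same stretch of scaffold_1, had 54.2 and 32.2 (-0.75). *Mal-A2* (0.38), *Mal-A5* (0.22), *Mal-A3* (0.11) and, on another scaffold, *Mal-B2* (0.31) differed less, and *Mal-A3* falls below 0 relative to the median gene. The amylase genes had changes below 0 that did not reach 2-fold: *Amyrel*, an amylase-related gene, had 23.9 and 13.1 (-0.87), *Amy-d* had 35.7 and 23.3 (-0.62) and *Amy-p* had 55.5 and 40.6 (-0.45). Of the 10 named members of the list 1 was higher by 2-fold (5.26% of all genes) and none lower (4.81%), with a median of 0.16 against 0.11 over all genes. Near-identical copies such as *Amy-d* and *Amy-p* could exchange reads.

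Among detoxification enzymes *Est-6* stood apart. It encodes esterase 6, a secreted carboxylesterase that breaks down ester compounds. Its FPKM (FBgn0023645, scaffold_0 from 4366819 to 4368497) was 54.5 on plain food against 121 on L-DOPA, 2.22-fold higher, while its neighbour *Est-P* had 0.313 and 0.596 and no status of OK. The juvenile hormone epoxide hydrolase gene *Jheh1* had 46.8 and 75.3 (log2 change 0.68), and *Jheh3*, on the same scaffold, had 74.0 and 52.5 (-0.50). The glutathione S-transferase gene *GstD1* (0.40), the catalase gene *Cat* (-0.18) and the superoxide dismutase gene *Sod* (-0.37) differed by less than 2-fold. The list had 6 members with a change, 1 of them higher by 2-fold (5.26% of all genes), and a median of 0.11, the same as over all genes.

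All 6 members of the centromere and heterochromatin list with a change were above 0, as were 6554 of all 11125 genes. Their median was 0.18 against 0.11 over all genes. By 2-fold, 2 of the 6 were higher, against 5.26% of all genes. *cid*, which encodes the centromeric histone (FBgn0044211, scaffold_1 from 6892478 to 6893155), had an FPKM of 30.5 on plain food against 65.7 on L-DOPA, 2.16-fold higher. *Hmr*, which encodes a centromere- and heterochromatin-associated protein known for its role in hybrid lethality (FBgn0066172, scaffold_15 from 1190121 to 1193902), had 5.07 and 13.9, 2.74-fold higher. The heterochromatin protein genes *HP1A* (0.21), *HP1C* (0.07) and *HP1B* (0.04) and the topoisomerase gene *Top2* (0.16) stayed near the median gene, and *HP1B* and *HP1C* fall below 0 once changes are taken relative to it. Of the members without a status of OK, *Umbrea* was at 0.445 on plain food and listed at 0 on L-DOPA. *OdsH* had 0.140 and 0.346, and *HP1E* and *HP1Lcsd* were at 0 on both. *SuUR* and *mitch*, which stand in no list, were not counted.

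The 4 members of the replication and cell cycle list had changes above 0, as did 6554 of all 11125 genes. By 2-fold, 1 of the 4 was higher, against 5.26% of all genes. Their median was 0.31 against 0.11 over all genes. The list does not cover every named gene, and *rux* (-0.28) and *plu* (0.40), which stand in no list, were not counted. *Cp110*, a centriole gene (FBgn0166674, scaffold_55 from 38283 to 41580), had an FPKM of 7.17 on plain food against 14.8 on L-DOPA, a log2 change of 1.04. *mus209*, the sliding clamp gene of DNA replication, had 224 and 283 (0.33). *Cdc37*, a co-chaperone gene (0.28), and *dhd*, a thioredoxin gene of the egg (0.11), differed less. At 8416 on plain food against 9104 on L-DOPA, *dhd* was among the most strongly expressed named genes.

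In the germline list no gene differed by 2-fold. *bcd*, whose mRNA sets the head end of the embryo, had an FPKM of 14.2 on plain food against 21.3 on L-DOPA (log2 change 0.59). *nos*, whose mRNA sets the tail end, had 263 and 193 (-0.45), and its listed span is shared with another gene. The sex determination genes *tra* (0.25), *Sxl* (-0.15) and *fru* (-0.02) differed by less. *Yp2*, which encodes a yolk protein made in the fat body and ovary, had 11520 and 6728 (-0.78), and 15.6% of the 77 genes of similar FPKM had a lower change.

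The lowest change of any named gene was that of *Sry-alpha*, which in *D. melanogaster* acts in the blastoderm embryo when cells first form. Its FPKM (FBgn0020088, scaffold_4 from 4713135 to 4714724) was 21.6 on plain food against 1.203 on L-DOPA, 17.9-fold lower, and 0.193% of 3115 genes of similar FPKM had a lower change. *nullo* and *ftz*, which also act at or near that stage, had too low a level for a status of OK: *nullo* was at 0.986 on plain food against listed at 0 on L-DOPA, and *ftz* was at 0.693 and listed at 0. These 2 were named after their values were seen, and *nullo* is in no list. The gap gene *hb* went the other way, with 24.1 and 34.4 (0.51), and *kni* (-0.23), *Ubx* (-0.13) and *Abd-B* (0.53) differed by less than 2-fold. The patterning list had a median of -0.13 over 5 genes. Besides *ftz*, its members without a status of OK did not fall. On plain food and L-DOPA *en* had 0.351 and 0.799, *bap* 0.700 and 0.925 and *ey* 1.91 and 1.97, and *tin* was at 0 on both.

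Cecropins are antibacterial peptides made by the fat body on infection. *CecA1* (FBgn0025653, scaffold_4 from 4888667 to 4888916) had an FPKM of 1138 on plain food against 313.7 on L-DOPA, 3.63-fold lower. *CecC*, which lies nearby, had 266 and 109.6, 2.43-fold lower, and *CecB*, between them, had 25.8 and 19.7 (log2 change -0.39). *Anp*, which encodes andropin, a related peptide of the male, was at 0 on both foods. The other immune genes with a name and a log2 change differed by less than 2-fold. *Rel*, the NF-kappaB factor of the Imd pathway, had 53.7 and 47.3 (-0.18). The thioester protein genes *Tep2* (0.26), *Tep3* (0.38), *Tep4* (0.05) and *Tep6* (0.55) were above 0, though *Tep4* falls below it relative to the median gene. The bacterial recognition genes of the PGRP family and *edin*, which the study names, were not found by name. Immune genes among the numbered rows were not identified. The list thus had 2 of 8 members lower by 2-fold (4.81% of all genes) and none higher (5.26%), with a median of -0.06 against 0.11 over all genes. The cecropin genes are near-identical in parts, so reads could have been split between them.

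Odorant-binding proteins carry small molecules in the fluid around sensory neurons, and some are made outside the antenna. They were the largest named family, with 51 genes, of which 15 were at 0 on both foods and 27 had a log2 change. Of the 27, 13 were above and 14 below 0, with a median of -0.01. *Obp19c* (FBgn0177543, scaffold_8 from 2482748 to 2483307) had an FPKM of 141.8 on plain food against 46.8 on L-DOPA, 3.03-fold lower. Its neighbours *Obp19a* (0.31), *Obp19b* (-0.16) and *Obp19d* (-0.01) did not share this difference. In the cluster on scaffold_4, *Obp99b* (FBgn0263698, from 4396229 to 4396678) had 1474 and 508, 2.90-fold lower, and *Obp99a* (FBgn0263699, from 4352231 to 4352727) had 1246 and 568.5, 2.19-fold lower. *Obp99c* had 1339 and 976 (-0.46), and *Obp99d* was at 0 on both foods. The highest changes of the family were those of *Obp83g* (24.7 and 42.7, log2 change 0.79), *Obp49a* (2.02 and 3.30, 0.70) and *Obp59a* (3.803 and 5.87, 0.63). *Obp57e*, linked in this species to its preference for its host, had 2.36 and 2.64 (0.16), and its neighbour *Obp57d* was at 0.776 on plain food against listed at 0 on L-DOPA. Chemoreceptor genes with a name were below the level needed for a status of OK.

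*DesatF* encodes a fatty acid desaturase that in *D. melanogaster* females makes the diene hydrocarbons of the cuticle, which act as pheromones. Its FPKM (FBgn0265521, scaffold_0 from 3239851 to 3240915) was 647.5 on plain food against 214 on L-DOPA, 3.02-fold lower, and 2.87% of 732 genes of similar FPKM had a lower change. *Desat2*, another desaturase gene of cuticular hydrocarbons, had 124.2 and 161 (log2 change 0.37).

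Of the dopamine and pigment synthesis list 2 genes were found by name, and of the eye pigment list 1. The L-DOPA pathway genes *ple*, *Ddc* and *Catsup*, which the study discusses, were not found by name. Nor were *eloF* and *Gasp*, which it also names. *Dat*, which encodes dopamine N-acetyltransferase, an enzyme that inactivates dopamine, had an FPKM of 102 on plain food against 61.2 on L-DOPA (log2 change -0.74). *y*, which takes part in making black melanin, had 12.04 and 15.3 (0.34). *w*, a pigment precursor transporter of the eye (FBgn0012800, scaffold_10 from 2444744 to 2446195), had 24.5 and 11.9, 2.06-fold lower.

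**Figure D3:**
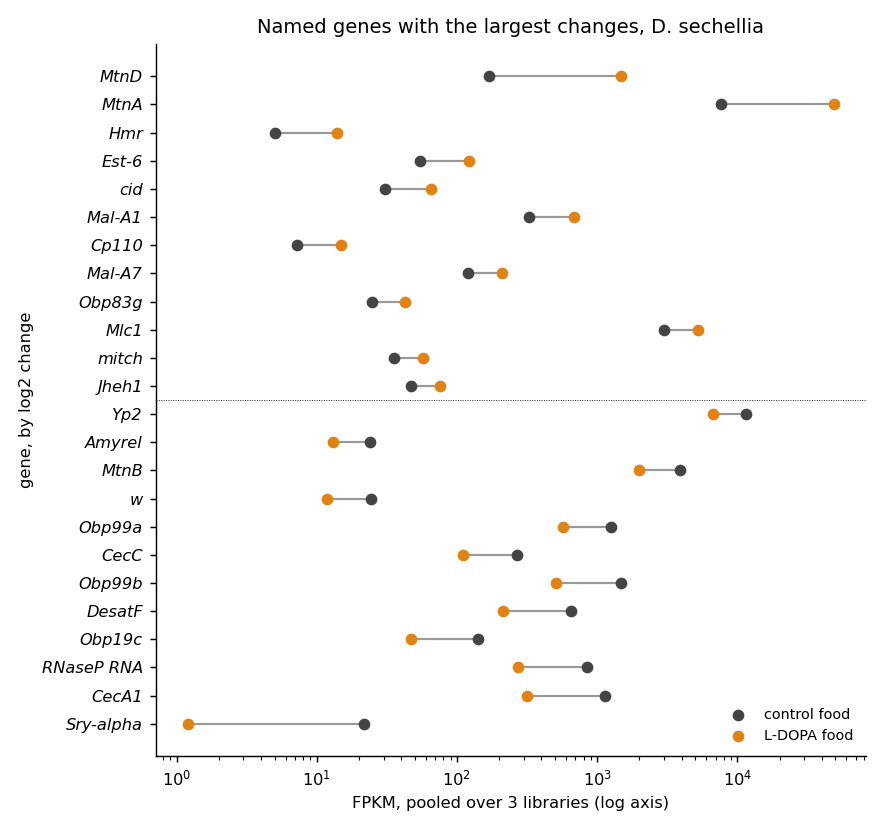
FPKM on control food (dark) and on L-DOPA (orange), on a log axis, for the 12 highest and 12 lowest changes among named *D. sechellia* genes that reached FPKM 5 on one food or the other. Each point is 1 value pooled over 3 libraries. *Sry-alpha*, *MtnD* and *MtnA* show the widest gaps between the foods.

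The few genes found by name for muscle, sugar and alcohol metabolism and protein folding differed by less than 2-fold where they had a change. *Mlc1*, which encodes a myosin light chain, had an FPKM of 3020 on plain food against 5217 on L-DOPA (log2 change 0.79), above all 150 genes of similar FPKM. The ribosomal protein gene *RpS18* had 5076 and 3585 (-0.50). The alcohol dehydrogenase gene *Adh* had 3013 and 3909 (0.38), and *Zw*, glucose-6-phosphate dehydrogenase, had 94.6 and 111.8 (0.24). The chaperone genes *Hsp83* (-0.08), *Hsp68* (0.38) and *DnaJ-1* (0.55) had a median of 0.38. The clock gene *per* was at 6.92 and 6.24 (-0.15).

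The remaining 36 named genes with a change belong to no list. Of these, 25 were above and 11 below 0, with a median of 0.11. The RNA subunit of RNase P, the enzyme that trims tRNA precursors, was the 1 gene among them past 2-fold, with an FPKM of 843 on plain food against 272 on L-DOPA (3.10-fold lower). It was lower on L-DOPA, as were most of the rRNA, snRNA and snoRNA rows, and its listed span on scaffold_4 (5860723 to 5862704) is shared with another gene. The next lowest was *cbt* (-0.38), a transcription factor gene. The highest was *mitch*, a kinetochore gene whose span is also shared, with 35.8 and 57.6 (0.69). The other 64 named members had no status of OK. Of these, 31 were at 0 on both foods, 12 at 0 on one food and 21 above 0 on both, with no value above 2.03.

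**Figure D4:**
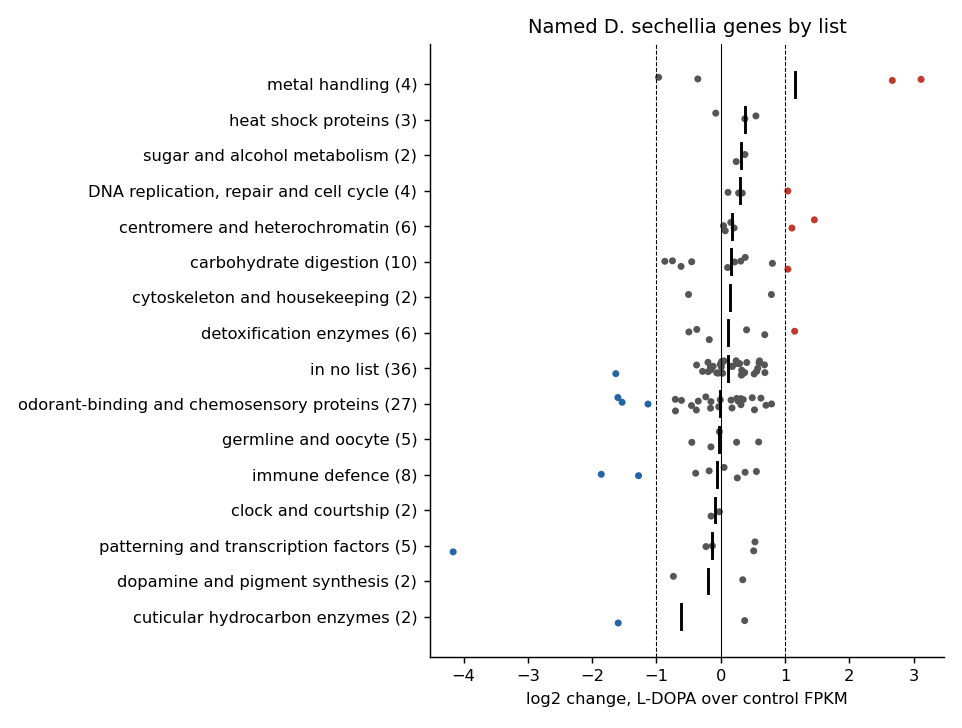
Log2 change on L-DOPA (horizontal axis) of each named *D. sechellia* gene, by list, with the number of genes in brackets, for lists with at least 2 such genes. Points are genes, red where higher and blue where lower by 2-fold or more (dashed lines), and black bars are medians. Metal handling spans -0.97 to 3.12, and a gene can stand in more than 1 list.

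Most genes past 2-fold carry a number, as do most members of any change. Among 8379 numbered genes at FPKM 10 or more on each food, 247 were higher and 233 lower by 2-fold. Over all 8480 genes at that level, named ones included, the counts were 252 and 241. By 4-fold, 21 numbered genes were higher and 29 lower. GM23806 (scaffold_0 from 16637843 to 16637944) had the highest change, with an FPKM of 246 on plain food against 2009 on L-DOPA, 8.15-fold higher, though its span is only 102 bases. GM24715 (scaffold_0 from 3949571 to 3950263) followed with 25.1 and 204.6, also 8.15-fold higher. The lowest changes were those of GM14382 (scaffold_2 from 1206779 to 1207201), with 1051 and 37.4, 28.1-fold lower, and GM14380 (scaffold_2 from 1203199 to 1203621), with 1252 and 56.8, 22.03-fold lower.

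These last 2 genes belong to a block. Between 1200127 and 1207201 on scaffold_2, 4 neighbouring genes of 423 bases each had log2 changes from -4.81 to -4.33, with an FPKM between 1051 and 1658 on plain food against between 37.4 and 82.4 on L-DOPA. Reads could map to more than 1 of them if they are copies, which was not tested. Other runs of at least 4 neighbours past 2-fold in 1 direction, found after the values were seen and counted without genes that share a listed span, lay on scaffold_5 from 4027202 to 4038456 (6 genes, -2.29 to -1.21), scaffold_1 from 6707614 to 6818703 (4 genes, -2.30 to -1.02), scaffold_0 from 8393563 to 8411089 (5 genes, 1.88 to 6.03), scaffold_0 from 7161474 to 7193023 (4 genes, 1.12 to 7.71) and scaffold_2 from 6083945 to 6089870 (4 genes, 1.35 to 3.32). The rising runs included weakly expressed genes. On plain food FPKM ran from 0.328 to 2.38 in the run of 5 genes on scaffold_0. It ran from 0.212 to 10.8 in the run of 4 genes there, and from 4.29 to 347.9 in that on scaffold_2. On L-DOPA the ranges were 8.76 to 23.1, 19.0 to 53.7 and 34.6 to 1062 in the same order. Neighbours were then counted over the 10340 genes with a log2 change and no shared span. Of 489 higher genes with a next neighbour on the scaffold, that neighbour was also higher for 63 (12.9%), where 5.27% of the 10340 were higher. For lower genes it was 60 of 458 (13.1%), where 4.71% were lower. Neighbours can be copies of one another, so they are not independent. By scaffold, the median log2 change of the 18 scaffolds with at least 100 genes ran from 0.02 (scaffold_8) to 0.16 (scaffold_12).

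The spread of changes was wider in *D. sechellia* than in the tables of the other species. The quartiles of the log2 change were -0.24 and 0.44 in *D. sechellia*, -0.23 and 0.07 in *D. simulans* and -0.09 and 0.10 in *D. melanogaster*. By at least 2-fold, 1.19% of 9497 genes were higher and 0.590% lower in *D. simulans*, and 0.829% of 10256 genes were higher and 0.673% lower in *D. melanogaster*. With 1 pooled value per food this difference could not be tested.

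Over the 97 named genes with a change in both *D. sechellia* and *D. simulans*, 7 were higher and 6 lower in *D. sechellia*, and 5 higher and none lower in *D. simulans*. Over the 104 shared with *D. melanogaster* the counts were 7 higher and 7 lower in *D. sechellia*, and 1 higher (*Mal-A7*) and 1 lower (*CecC*) in *D. melanogaster*. The change was larger in size in *D. sechellia* for 68 of 97 and 82 of 104 genes.

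*MtnD* had log2 changes of 3.12 in *D. sechellia*, 0.11 in *D. simulans* and -0.13 in *D. melanogaster*, and *MtnA* had 2.67, -0.02 and 0.36 in the same order. *Hmr* had 1.46, -0.24 and 0.28, *cid* had 1.11, -0.71 and -0.11, and *Sry-alpha* had -4.16, -0.84 and -0.52. *Mal-A1* was above 0 in all 3, at 1.04, 1.49 and 0.99. The amylases, which were below 0 in *D. sechellia*, were above 0 elsewhere: *Amy-p* had -0.45, 1.90 and 0.52, *Amy-d* had -0.62, 1.56 and 0.53, and *Amyrel* had -0.87, 1.64 and 0.66. *Obp99b* had -1.54, 0.50 and 0.73, and *Obp99a* of the same cluster had -1.13, -0.41 and 0.78. Besides *Sry-alpha*, genes with smaller changes of the same sign in the other 2 species included *Est-6* (1.15, 0.38 and 0.16), *Obp19c* (-1.60, -0.31 and -0.41) and *w* (-1.04, -0.48 and -0.25). *Cp110* had 1.04, 0.04 and -0.10. *CecA1* had -1.86, 2.83 and -0.66. *CecC* had -1.28 in *D. sechellia* and -1.45 in *D. melanogaster*, and its FPKM in *D. simulans* was below 1 (0.855 and 0.713). *DesatF* had an FPKM of 0.0108 and 0.0311 in *D. simulans*, too low for a status of OK. Levels also differed between species. In *D. sechellia*, *D. simulans* and *D. melanogaster*, *Sry-alpha* had an FPKM of 21.6, 3.13 and 1.59 on plain food. On L-DOPA it had 1.203, 1.75 and 1.104 in the same order. *CecA1* had 1138, 7.36 and 11.2 on plain food, and 313.7, 52.4 and 7.07 on L-DOPA. *Amyrel* in *D. melanogaster* had only 0.687 on plain food against 1.086 on L-DOPA. The tables of the species were normalized separately, and none of these differences between species was tested.

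**Figure D5:**
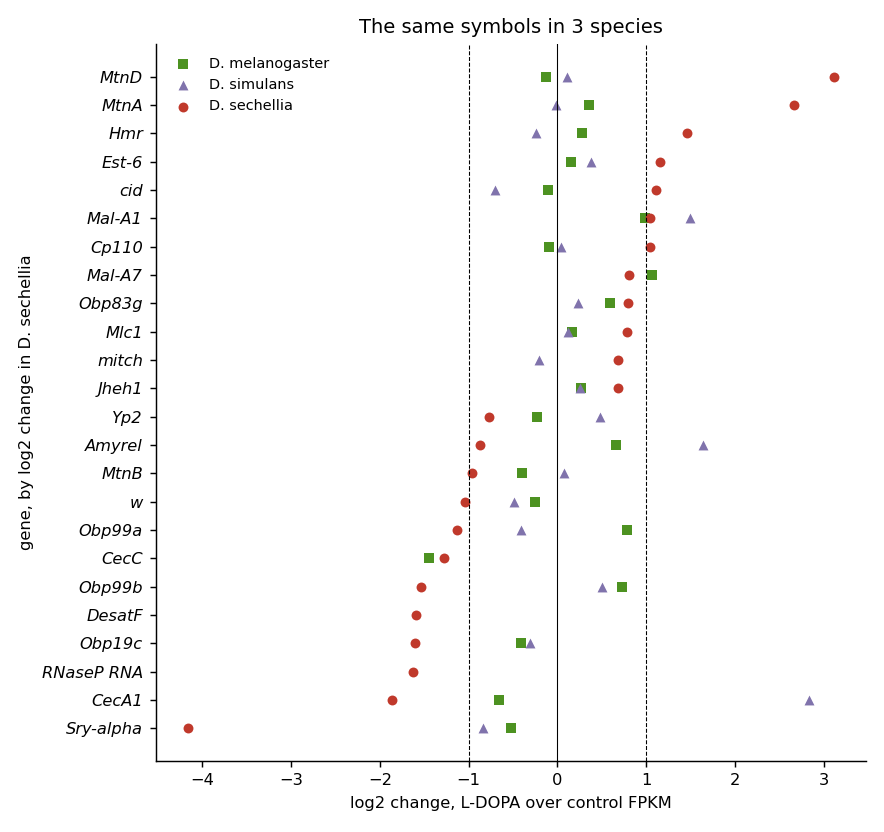
Log2 change on L-DOPA (horizontal axis) in *D. sechellia* (red circles), *D. simulans* (purple triangles) and *D. melanogaster* (green squares) for the 24 named genes with the highest and lowest changes in *D. sechellia*, which were chosen on the red values. A missing symbol means that no value with a status of OK and an FPKM of 1 was found under that symbol. *MtnD* lies at 3.12 in *D. sechellia*, 0.11 in *D. simulans* and -0.13 in *D. melanogaster*.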

How the data were processed

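RNA from whole *D. sechellia* females was mRNA-selected and sequenced as single-end reads. The authors aligned the reads with Bowtie2 at default settings to the dsec_caf1 genome, then applied Cuffdiff, scaled geometrically and corrected for length (versions not given in the sources used here). The labels name BDGP6 as the build of these samples too, while the scaffold names of the table are those of dsec_caf1, as in the methods. The authors deposited 1 FPKM value per gene and food, combined over 3 libraries. Their tables also hold fold changes, test scores, p-values and q-values, which were not used. Reads of overlapping or near-identical genes may have been split between them, and geometric scaling sets the centre of all changes.

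FPKM ratios were taken and log2-transformed in Python 3.11.15 with pandas 2.3.3 and numpy 2.4.6, and the counting was checked on simulated data. No test across genes was run. The window of similar FPKM was 2-fold in mean FPKM. Starts are counted from 1. Conditions came from the sample labels and methods.

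The members and lists were chosen with earlier results of these data known. Of 23 lists, 4 had no named member: gut proteases, cuticle and chitin, histones, and mitochondrially encoded genes. Genes named in the text are the 12 highest and 12 lowest changes at an FPKM of at least 5, members of lists with up to 12 tested genes, the 3 highest and 3 lowest of a longer list, genes named in the study, and 2 numbered genes each way at FPKM 10 or more on each food. Further genes, such as neighbours of those, were named after their values were seen. Alternatives were other FPKM minimums, status, a pseudocount, centring, 1.5-fold and 4-fold limits, small RNA rows and shared spans.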

Additional observations from a re-analysis of the deposited data

Results flagged for a closer look

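Among the miRNA rows, which were left out of the comparison, 2 had a status of OK, and both were listed at 0 on control food and above 0 on L-DOPA. *mir-317* (scaffold_0 from 15996588 to 15996679) was at an FPKM of 177 on L-DOPA, and *mir-100* (scaffold_7 from 2092736 to 2092817) at 441. Such short features give a high FPKM from few reads, and these 2 rows were not tested.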

How the results depend on the processing

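No paired analysis was possible because the table holds 1 pooled value per food, and for the same reason no library could be left out. Of the 585 higher and 535 lower genes, 391 higher and 331 lower were left when FPKM had to reach 10 on one food or the other, and 252 higher and 241 lower when it had to reach 10 on each, an alternative added after seeing the data. At a 1.5-fold limit there were 1876 higher and 1267 lower genes, and at 4-fold 122 and 102. The other counts, under any status, no FPKM minimum, at least 1 on both foods, a pseudocount of 1, centring, small RNA rows included or shared spans left out, stayed within 1.5 times of those reported. The median of the patterning list was -1.83 at an FPKM of at least 10, where 2 genes remained. With a pseudocount of 1 the change of *Sry-alpha* was -3.36, and *w* (-0.98) and *Cp110* (0.95) no longer reached 2-fold. Relative to the median gene *Cp110* (0.94) and *Mal-A1* (0.94) did not reach it and *MtnB* (-1.07) did. This centring changed the sign of 11 of 126 named genes, among them *Mal-A3*, *Tep4*, *HP1B* and *HP1C*. Low FPKM values rest on few reads, and the number of reads behind a value was not known.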
